A study of Rattus norvegicus with 12 samples.

Results

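Circles of 420 to 1000 bp that lie in introns or between genes were examined in circular DNA of rat back skin. They were chosen by 2 columns of the deposited annotation, the type of the circle (intronic or intergenic) and its length (end minus start), so their length and their annotation are not findings. The lower limit of each length range given here is included and the upper one is not. The rule took 15417 circles, 10209 intergenic and 5208 intronic. They were 6.75% of the 228353 circles listed and 7.33% of the 210215 intronic and intergenic circles. Neither limit falls on a gap in the lengths: 4275 such circles had 410 to 420 bp and 2528 had 420 to 430 bp, while 55 had 990 to 1000 bp and 34 had 1000 to 1010 bp.

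Extrachromosomal circular DNA is cut or copied out of the chromosomes and closed into a ring, and small circles of this kind are found in healthy tissues of many animals. Their lengths often form a ladder with steps of about the DNA wrapped on a nucleosome plus its linker, with the tallest rungs at the length of 1 and of 2 nucleosomes. The circles described here are longer than the tall rung of 2 nucleosomes and shorter than circles of a kilobase or more. They are too short to hold a whole gene of ordinary size.

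The skin came from wild-type SD (Sprague Dawley) rats, and circles were sequenced by Circle-seq, in which linear DNA is digested with exonuclease and the remaining circles are made into libraries. The 4 control libraries were from untreated skin. The 4 libraries named 5 Gy x2 were from skin sampled on day 7 after 2 fractions of 5 Gy of electrons given a week apart, and the 4 libraries named 5 Gy x4 from skin sampled on day 7 after 4 such fractions. More dose came with a later sampling, and the sampling time of control skin is not stated, so dose and time cannot be told apart. Whether each library stands for an animal of its own is not in the labels. The p-values therefore measure only how far these libraries spread, which may be technical.

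The measured value is a count of supporting reads, the split reads and discordant pairs that span the closing point of a circle. A circle counted as present in a library with at least 1 such read. Listed circles of all types together drew 35525 to 404815 supporting reads per library. This is not the sequencing depth, and the reads carry no molecular identifiers. The library 5 Gy x2 replicate 2 stood apart, with 32.7% of its circles of 420 to 1000 bp on a single read against 13.4% to 16.3% in the other libraries of that group. The number of circles is given with and without it.

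Circles of 420 to 1000 bp were more numerous after 4 fractions, yet they were a smaller part of each irradiated library than of each control library. Control libraries held 757, 1176, 1106 and 749 of them. The 5 Gy x2 libraries held 1469, 2731, 1739 and 576, and the 5 Gy x4 libraries 1552, 2828, 3725 and 1464. All 5 Gy x4 libraries lay above all control libraries, while 5 Gy x2 replicate 4 held fewer than any control library. The mean of 5 Gy x4 was 2.53 times that of control (2392 ± 1085 against 947 ± 226, SD, n = 4 each; exact permutation test, two-sided, p = 0.0286, the smallest that 4 against 4 allows). After adjustment over the 27 planned comparisons this p was 0.0593, and the same holds for every other p of 0.0286 among them. The ratio of 5 Gy x2 to control was 1.72 (exact p = 0.171), or 1.33 without 5 Gy x2 replicate 2, and that of 5 Gy x4 to 5 Gy x2 was 1.47 (exact p = 0.371), or 1.90 without that library. Without 5 Gy x2 replicate 4 instead, these ratios were 2.09 (exact p = 0.0571, the smallest that 3 against 4 allows) and 1.21.

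The number depends on how a library is scaled. With 30000 supporting reads drawn from each library, the ratio of 5 Gy x4 to control was 1.48 (exact p = 0.143). Divided by the supporting reads of the library it was 0.966 (exact p = 0.914), which is close to no difference. Divided by the depth on the mitochondrial genome it was 0.383 (exact p = 0.0857), so there its direction turned. Mitochondrial depth was 88989 to 134149 in 5 Gy x4 libraries and 7160 to 49325 in control libraries. Its part in the number was not tested.

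As a share of the intronic and intergenic circles, the class took 17.04%, 13.4%, 11.4% and 22.1% of control libraries. It took 8.33%, 10.4%, 6.87% and 9.89% of 5 Gy x2 libraries and 7.62%, 6.89%, 8.79% and 7.89% of 5 Gy x4 libraries. Neither irradiated group overlapped control. The difference from control was -8.20 percentage points in 5 Gy x4 and -7.14 points in 5 Gy x2 (exact p = 0.0286 for each, adjusted 0.0593). For 5 Gy x4 minus 5 Gy x2 it was -1.06 points (exact p = 0.286). Among circles found in 1 library only, the difference from control was -2.52 points for 5 Gy x4 and -2.54 points for 5 Gy x2 (exact p = 0.143 and 0.171), an alternative chosen after seeing the data.

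The same was seen against the neighbouring rung. The log2 ratio of circles of 420 to 1000 bp to circles of 330 to 420 bp was -0.96, -1.38, -1.96 and 0.47 in control libraries. In 5 Gy x2 libraries it was -3.03, -2.73, -3.31 and -2.61, and in 5 Gy x4 libraries -3.09, -3.35, -2.95 and -3.04. Control replicate 4 was the only library in which the longer class outnumbered the shorter one. The difference from control was -2.15 for 5 Gy x4 and -1.96 for 5 Gy x2 on the log2 scale (exact p = 0.0286 for each, adjusted 0.0593). It was -1.67 for 5 Gy x4 and -1.49 for 5 Gy x2 without control replicate 4. The ratio does not depend on a scaling of the library.

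**Figure D1:**
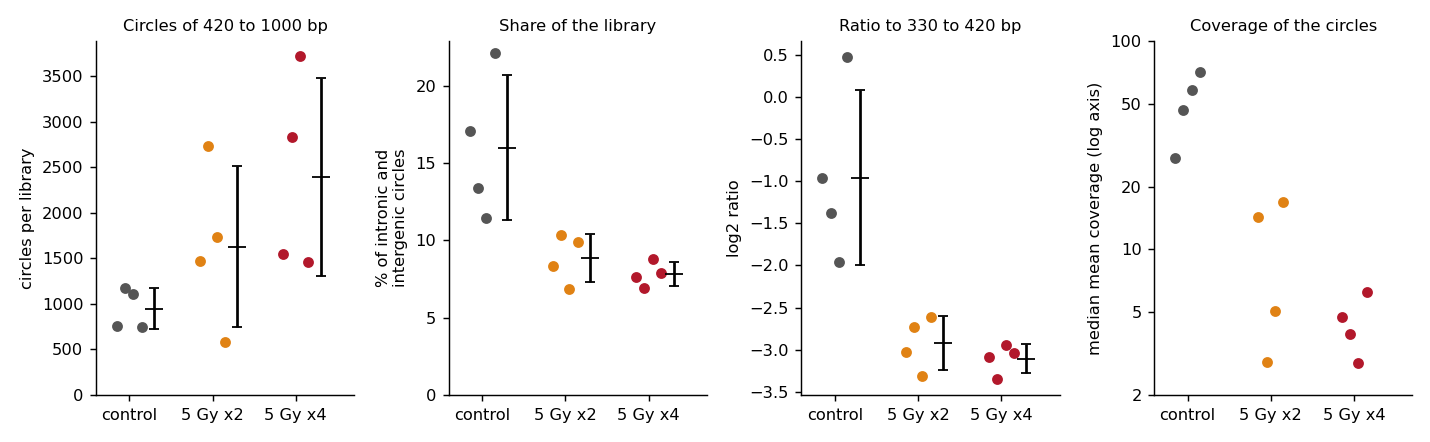
Each point is 1 library, 4 per group. The panels show the number of circles of 420 to 1000 bp, their percentage of the intronic and intergenic circles, the log2 ratio of their number to that of circles of 330 to 420 bp, and the median of their mean coverage on a log axis; black bars in the first 3 panels are the mean and SD. The share and the ratio of all 8 irradiated libraries lie below those of all 4 control libraries.

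Circles of the class also drew a larger share of the supporting reads in control libraries, where they were a larger share of the circles. They drew 25.1% ± 4.0 of the supporting reads on intronic and intergenic circles in control libraries, 12.7% ± 3.2 in 5 Gy x2 libraries and 10.4% ± 1.9 in 5 Gy x4 libraries (SD, n = 4 each). The difference from control was -14.6 points in 5 Gy x4 and -12.4 points in 5 Gy x2 (exact p = 0.0286 for each, adjusted 0.0593). The mean number of supporting reads per circle was 11.4, 21.6, 33.2 and 36.1 in control libraries, 28.6, 4.64, 12.9 and 12.1 in 5 Gy x2 libraries, and 11.4, 9.41, 5.67 and 17.8 in 5 Gy x4 libraries. The groups overlapped, and 5 Gy x4 over control was 0.433 (exact p = 0.0857).

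Coverage differed more. The deposited annotation gives the mean read depth along each circle, whose median over the circles of a library was 27.4, 46.6, 58.5 and 70.9 in control libraries. It was 14.3, 2.87, 5.08 and 16.9 in 5 Gy x2 libraries and 4.74, 3.90, 2.85 and 6.26 in 5 Gy x4 libraries, with no overlap of either with control. The ratio to control was 0.0873 for 5 Gy x4 and 0.193 for 5 Gy x2 (exact p = 0.0286 for each, adjusted over 30 comparisons added later 0.0714). The label hconf, whose definition is not given in the sources used here, was on 46.3% ± 4.5 of the circles of a control library, 26.4% ± 6.4 in 5 Gy x2 and 22.3% ± 1.6 in 5 Gy x4 (SD, n = 4 each). With circles of that label alone, the number in 5 Gy x4 was 1.23 times that in control (exact p = 0.571) and that in 5 Gy x2 was 0.903 times that in control (exact p = 0.657).

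Within the class, the irradiated libraries showed 2 further rungs of the ladder that were less marked in control libraries. Smoothed over 21 bp, the lengths of 5 Gy x4 circles peaked at 364 bp just below the class, then at 566 bp and at 739 bp, with low points at 510 and 679 bp. In 5 Gy x2 the peaks lay at 365, 569 and 745 bp, with low points at 503 and 678 bp. The steps were 202 and 173 bp in 5 Gy x4 and 204 and 176 bp in 5 Gy x2. Each peak or low point is the extreme within a set range of lengths, so every group yields one, marked or not. In control the peaks lay at 364, 556 and 779 bp, with steps of 192 and 223 bp. In control circles found in 1 library only, the last 2 lay at 584 and 743 bp. The first peak belongs to the neighbouring class. The others of the irradiated groups are near the length of 3 and of 4 nucleosomes with their linkers.

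The height of the first rung within the class was read as the number of circles of 550 to 590 bp over the mean number in the flanking windows of 480 to 520 and 640 to 680 bp. These windows were chosen after the profiles were seen, so the ratios are a description with no test. The ratio was 1.23, 1.07, 1.18 and 0.919 in control libraries. It was 1.53, 2.06, 1.55 and 1.01 in 5 Gy x2 libraries and 1.82, 2.36, 2.08 and 1.96 in 5 Gy x4 libraries. All irradiated libraries but 5 Gy x2 replicate 4, the one with fewest circles, lay above the control libraries.

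The second rung, 720 to 760 bp over the mean of 640 to 680 and 820 to 860 bp, had ratios of 1.26, 0.948, 1.20 and 1.01 in control libraries. They were 1.81, 3.13, 2.67 and 0.920 in 5 Gy x2 libraries and 1.91, 2.86, 2.16 and 1.47 in 5 Gy x4 libraries. Again 5 Gy x2 replicate 4 alone among irradiated libraries lay within or below the control range. Both ratios compare windows of 1 library, so no scaling factor between libraries enters them. Which circles are found still depends on depth, and its part in these ratios was not tested.

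A circle found in 2 or more libraries is listed with a length joined from its calls. Of 2341 such circles, 50 had the same ends in all calls, while each circle found in 1 library keeps the length of its call. The part of the joining in the contrast below was not tested. By listed length, the rungs were clearer in circles found in a single library. For these, the first ratio was 1.24, 1.46, 1.76 and 0.926 in control libraries, 2.21, 2.62, 2.66 and 1.20 in 5 Gy x2 libraries and 2.58, 3.52, 2.73 and 3.81 in 5 Gy x4 libraries. All irradiated libraries but 5 Gy x2 replicate 4 again lay above control. The second ratio was 2.38, 1.30, 2.63 and 1.11 in control libraries, 3.72, 3.91, 4.74 and 0.714 in 5 Gy x2 libraries and 2.58, 3.66, 2.75 and 2.25 in 5 Gy x4 libraries. Here the groups overlapped: control replicates 1 and 3 lay within the range of 5 Gy x4, and 5 Gy x2 replicate 4 was the lowest of all. These second ratios rest on few circles, with 15 to 25 in the window of 720 to 760 bp in each control library and 5 in 5 Gy x2 replicate 4. Pooled over a group, circles found in 2 or more libraries had a first ratio of 0.953 in control libraries, 0.766 in 5 Gy x2 libraries and 0.697 in 5 Gy x4 libraries, and a second ratio of 0.879, 0.889 and 0.899 in the same order, so neither pooled window stood above its flanks. A finer repeat of 11 bp was not seen: among spacings of 6 to 16 bp, the lengths had their highest autocorrelation at 13 bp in control libraries, at 8 bp in 5 Gy x2 libraries and at 13 bp in 5 Gy x4 libraries.

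**Figure D2:**
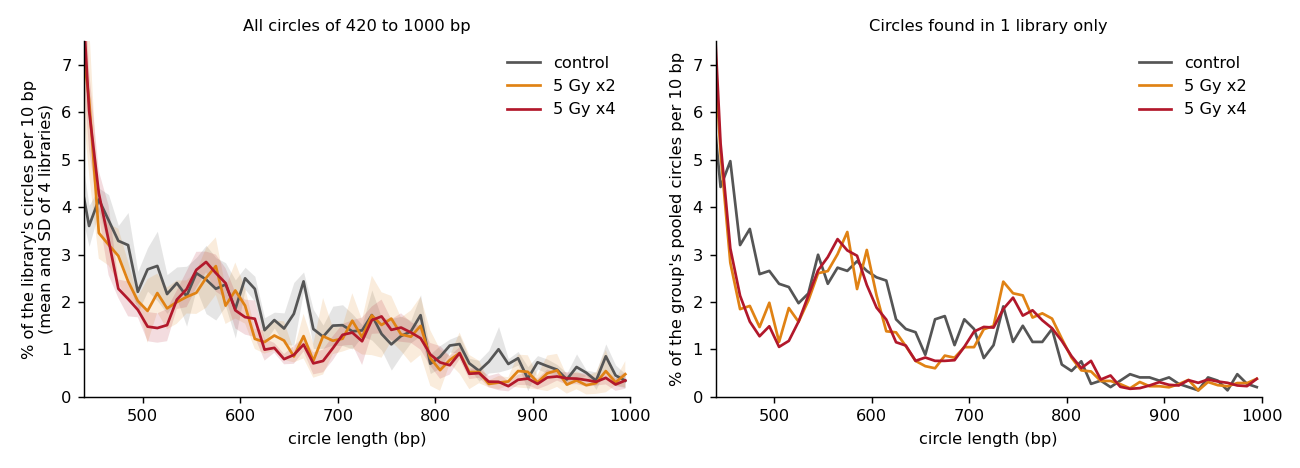
Percentage of circles per 10 bp of length from 440 to 1000 bp, by group; on the left the mean of 4 libraries with its SD as a band, on the right the circles found in 1 library only, pooled over each group. By listed length, the irradiated groups show humps near 566 and 740 bp and low points near 510 and 680 bp. These are clearer in circles found in 1 library only.

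The length bins were tested with counts of circles per 20 bp from the shortest lengths up to 2000 bp, fitted together with edgeR's quasi-likelihood test after TMM normalization. Of 62 bins tested, 29 lay within 420 to 1000 bp. Between 5 Gy x4 and control, 4 of the 29 were higher in 5 Gy x4 (17.7% of all bins tested were) and 4 were lower (24.2% of all bins tested were). Bins at the start of the class and near the rungs rose: the log2 fold change was 1.5 ± 0.21 (SE) at 420 to 440 bp, 0.71 ± 0.15 at 440 to 460 bp, 0.51 ± 0.19 at 560 to 580 bp and 0.70 ± 0.27 at 740 to 760 bp (edgeR adjusted p = 1.59e-06, 0.00037, 0.0347 and 0.0419). Bins between the rungs fell, with -0.60 ± 0.18 at 500 to 520 bp and -0.76 ± 0.23 at 660 to 680 bp (edgeR adjusted p = 0.00985 and 0.00881). So did the bins at 860 to 880 and 900 to 920 bp, by -1.26 and -0.71 (edgeR adjusted p = 0.00159 and 0.0459).

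For 5 Gy x2 over control, 3 of the 29 bins were higher (12.9% of all bins tested were) and 2 lower (17.7% of all bins tested were). They rose at 420 to 440, 440 to 460 and 740 to 760 bp, by 1.27, 0.58 and 0.77 on the log2 scale. They fell by 0.67 at 660 to 680 bp and by 1.07 at 860 to 880 bp (edgeR adjusted p between 2.58e-05 and 0.0323). The bin of 560 to 580 bp had 0.47 ± 0.19 and did not pass (edgeR adjusted p = 0.0721). For 5 Gy x4 over 5 Gy x2, edgeR called 0 of the 29 bins (0% of all bins tested) and DESeq2 called 0, while 8 of all 62 bins had an unadjusted edgeR p under 0.05. The share of bins called in the class was not above that of all bins tested in any of these comparisons.

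These directions are relative to the other length bins. Scaled by library size alone, 27 of the 29 bins were called for 5 Gy x4 and 25 for 5 Gy x2, all of them lower; the median over bins of the TMM minus the library-size log2 fold change was 1.33 for 5 Gy x4 and 1.13 for 5 Gy x2. The number of bins called for 5 Gy x4 was 5 without control replicate 2, and for 5 Gy x2 it was 2 without control replicate 1 and 8 without 5 Gy x2 replicate 4.

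In circles per library, the first bin (420 to 440 bp) held 61 to 162 in control libraries, 111 to 568 in 5 Gy x2 libraries and 394 to 841 in 5 Gy x4 libraries. It is the tail of the neighbouring peak rather than a rung. The bin of 560 to 580 bp held 32 to 62 circles in control libraries, 24 to 171 in 5 Gy x2 libraries and 73 to 209 in 5 Gy x4 libraries. The bin of 660 to 680 bp, between the rungs, held 28 to 43 in control libraries, 14 to 53 in 5 Gy x2 libraries and 25 to 78 in 5 Gy x4 libraries, so there the groups overlapped.

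**Figure D3:**
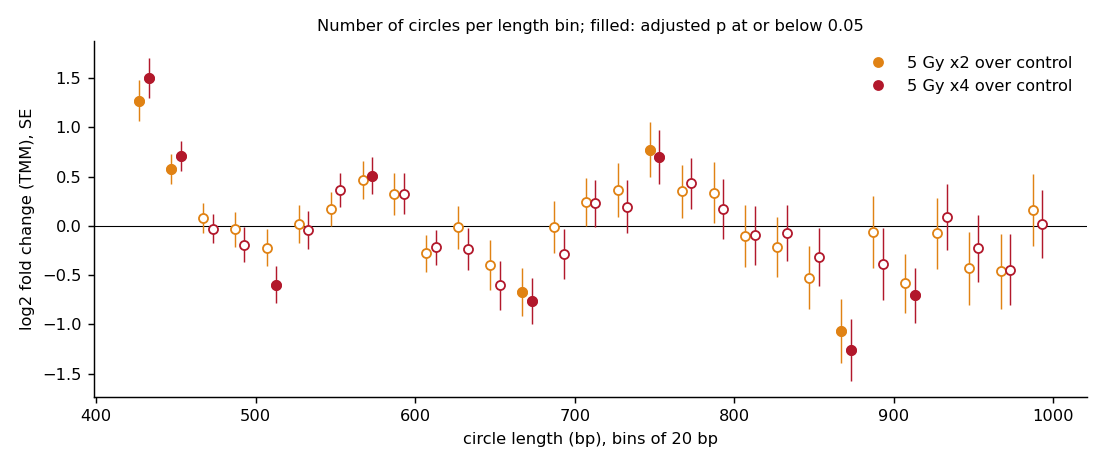
Log2 fold change (edgeR, TMM) of the number of circles per 20 bp length bin with its SE, for 5 Gy x2 over control and 5 Gy x4 over control; filled points have an adjusted p at or below 0.05. Both comparisons are high at 420 to 460 bp and at 740 to 760 bp and low at 660 to 680 bp and 860 to 880 bp.

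The median length of the circles was 581, 571, 562 and 582 bp in control libraries. It was 533, 565, 482 and 545 bp in 5 Gy x2 libraries and 520, 526, 548 and 490.5 bp in 5 Gy x4 libraries. All 5 Gy x4 libraries lay below all control libraries, with a difference of means of -52.9 bp (exact p = 0.0286, adjusted 0.0593). For 5 Gy x2 minus control it was -42.75 bp (exact p = 0.0571), or -26.3 bp without 5 Gy x2 replicate 3. In circles found in 1 library only, the difference of 5 Gy x4 from control was -21 bp (exact p = 0.429), and within a narrower class of 500 to 800 bp it was -6.75 bp (exact p = 0.171). The share of 500 to 600 bp within the class, a band that holds the first rung, was 21.1% in 5 Gy x4 against 23.7% in control (a difference of -2.60 points, exact p = 0.0286, adjusted 0.0593).

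A large part of the circles of control skin came back in other libraries. Of the 15417 circles, 13076 (84.8%) were found in 1 library, against 96.9% of the other intronic and intergenic circles. In all, 488 were found in 4 or more libraries, which is 41.1% of the 1187 intronic and intergenic circles that recurred so often, and 3 were found in all 12. Within each library, the share found in 2 or more libraries was higher than among circles of 330 to 420 bp (42.4% against 10.49% in the mean of 12 libraries, higher in 12 of 12; permutation test by sign flips, p = 0.000488, adjusted over 8 comparisons 0.000781). It was lower than among circles of 1000 to 10000 bp (42.4% against 62.2%, lower in 12 of 12; adjusted p = 0.000781 by the same permutation test). Reads per circle differed between the classes in the same order, and their part in this share was not tested. Circles found in 2 or more libraries are listed with a length joined from their calls. Of 2341 such circles in the class, 778 had every call under 420 bp, so joining placed them in it. The part of the joining in these shares was not tested either.

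Recurrent circles varied less in number between libraries than single finds did. Circles were sorted by the number of libraries that held them, so part of this contrast may come from the sorting. This was not tested. Circles found in 4 or more libraries numbered 238, 291, 290 and 241 in control libraries, 238, 204, 190 and 186 in 5 Gy x2 libraries and 202, 196, 263 and 182 in 5 Gy x4 libraries. The ratio to control was 0.795 for 5 Gy x4 (exact p = 0.0857) and 0.772 for 5 Gy x2 (exact p = 0.0571), and both groups overlapped control. Circles found in 1 library only numbered 296, 482, 455 and 235 in control libraries, 882, 2183, 1196 and 225 in 5 Gy x2 libraries and 1045, 2156, 2912 and 1009 in 5 Gy x4 libraries. For these single finds, all 5 Gy x4 libraries lay above all control libraries, with a ratio of means of 4.85 (exact p = 0.0286, adjusted 0.0714). The ratio of 5 Gy x2 to control was 3.06 (exact p = 0.143), and 5 Gy x2 replicate 4 lay below every control library. The share found in 2 or more libraries was 61.8% in control libraries, 38.0% in 5 Gy x2 libraries and 27.3% in 5 Gy x4 libraries on average, a difference of -34.5 points for 5 Gy x4 minus control (exact p = 0.0286, adjusted 0.0714).

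**Figure D4:**
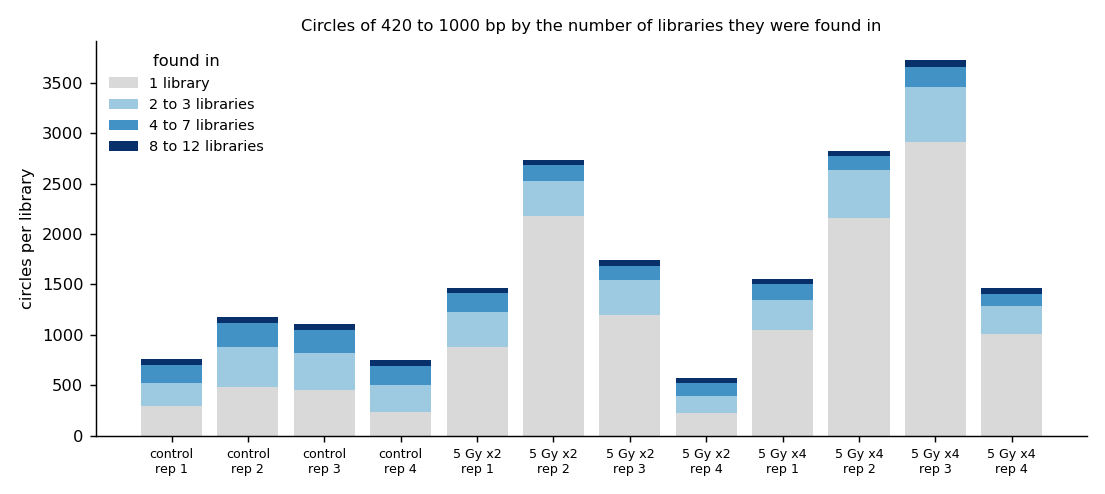
Circles of 420 to 1000 bp in each library, stacked by the number of libraries in which the circle was found. The dark parts, circles found in 4 or more libraries, are 182 to 291 in every library, while the light part, found in 1 library only, runs from 225 to 2912.

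Most listed circles that recur are a place on the genome with ends that differ between libraries. The annotation keeps the ends called in each library, and 2341 circles were joined from 2 or more calls. In 50 of these all calls had the same ends. Of the 2341, 1490 had at least 1 call under 420 bp and 778 had every call under 420 bp, so those 778 owe their length to the joining. They are 5.05% of all 15417 circles, but only joined circles can be of this kind. By the length of the single calls, the number in 5 Gy x4 was 2.50 times that in control (exact p = 0.0286, adjusted 0.0714).

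The circles found in most libraries are examples. The intergenic circle at chr7:142066301-142067188 (888 bp, coordinates of build rn6 throughout) was found in all 12 libraries, with 12 different calls of 330 to 888 bp. It had 54, 49, 95 and 196 supporting reads in control libraries, 71, 23, 24 and 35 in 5 Gy x2 libraries, and 38, 110, 44 and 41 in 5 Gy x4 libraries. The intronic circle of Laptm4b, which encodes a lysosomal membrane protein, lies at chr7:72946522-72946985. It also had 12 different calls, of 273 to 462 bp, and drew 54, 42, 78 and 53 reads in control libraries, 101, 41, 25 and 27 in 5 Gy x2 libraries and 43, 70, 21 and 62 in 5 Gy x4 libraries. In both the groups overlapped. The third circle found in all 12 libraries was intergenic at chr17:55374695-55375511, with 177 reads in control libraries, 110 in 5 Gy x2 libraries and 297 in 5 Gy x4 libraries.

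Of those found in 11 libraries, the intronic circle of Lrrc8c (chr14:5322897-5323319), a gene for a subunit of the volume-regulated anion channel, had only 3 different calls. Its reads were 46, 202, 280 and 10 in control libraries, 442, 10, 31 and 14 in 5 Gy x2 libraries and 118, 85, 33 and 0 in 5 Gy x4 libraries. The intronic circle of Gask1a (chr8:130606156-130606819) had 11 different calls of 425 to 640 bp and 94 reads in control libraries, 127 in 5 Gy x2 libraries and 107 in 5 Gy x4 libraries. The other 3 were intergenic, on chromosomes 6, 16 and 8, with 631, 465 and 267 reads in all. The circle on chromosome 8 is listed at 468 bp, but its calls had 263 to 416 bp.

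The circles with most supporting reads were of another kind. Of the 6 with most reads, 5 were intergenic and lay within chr1:180644414-181323096, and several of them had the same ends in different libraries. The highest, 738 bp at chr1:181286479-181287216, had 2381 reads in 5 Gy x2 replicate 1, 1752 in 5 Gy x2 replicate 3 and 861 in 5 Gy x4 replicate 2, with 1 pair of ends in all, and none in the other 9 libraries. The next, 735 bp at chr1:181259667-181260401, also with 1 pair of ends, had 1188 reads in control replicate 3, 469 in 5 Gy x2 replicate 2 and 1741 in 5 Gy x4 replicate 4. A circle of 826 bp at chr1:181322271-181323096 had the same ends in 5 libraries of all 3 groups, with 1381 reads.

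Within chr1:180507301-181994885 lay 25 circles of the class, of 427 to 887 bp with a median of 736 bp, and 16 of them had 700 to 900 bp. They drew 16673 of the 273359 supporting reads of the class, or 6.10%. Their share of a library's reads of this class was 1.06%, 4.81%, 13.6% and 1.98% in control libraries, 8.18%, 4.95%, 8.83% and 0% in 5 Gy x2 libraries and 1.06%, 3.43%, 1.26% and 9.39% in 5 Gy x4 libraries, so it did not separate the groups. This stretch was singled out after its values were seen, and the sequences of the circles were not analysed here. The remaining circle of the 6 was in an intron of Slc4a4, a sodium bicarbonate cotransporter gene, at chr14:20903201-20903911. It had 10 different calls in 10 libraries and 763 reads in control libraries, 497 in 5 Gy x2 libraries and 253 in 5 Gy x4 libraries.

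Circles of the class lay in gene-dense sequence more often in control than in irradiated libraries. A window of 10 Mb counted as gene-dense if it was among the 72 of 291 windows with most genes that hold a listed circle, which is at least 79 genes. The share in such windows was 33.4%, 32.7%, 32.9% and 35.5% in control libraries, 28.5%, 24.9%, 26.2% and 31.9% in 5 Gy x2 libraries and 26.2%, 25.6%, 28.3% and 25.9% in 5 Gy x4 libraries. Neither irradiated group overlapped control, and the difference was -7.16 points for 5 Gy x4 and -5.78 points for 5 Gy x2 (exact p = 0.0286 for each, adjusted 0.0593). The intronic share was 37.8% ± 1.0 in control libraries, 34.6% ± 1.0 in 5 Gy x2 libraries and 34.9% ± 0.9 in 5 Gy x4 libraries (SD, n = 4 each), again with no overlap of either with control (exact p = 0.0286 for each, adjusted 0.0593). In circles labelled hconf the intronic share differed from control by -2.59 points in 5 Gy x4 and -0.64 points in 5 Gy x2 (exact p = 0.2 and 0.886).

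Of 3 length classes in the same libraries, this one lay most often in gene-dense sequence. The share was 29.3% for circles of 420 to 1000 bp and 26.2% for those of 330 to 420 bp (higher in 11 of 12 libraries; permutation test by sign flips, adjusted p = 0.00195). Circles of 1000 to 10000 bp had 26.0% (the class of 420 to 1000 bp was higher in 8 of 12; same permutation test, adjusted p = 0.0296), and among circles labelled hconf that difference was 2.55 points with an adjusted p of 0.0923 by the same permutation test. The intronic share was 1.14 points above that of circles of 330 to 420 bp (higher in 8 of 12; permutation test, adjusted p = 0.0474) and 3.56 points above that of circles of 1000 to 10000 bp (higher in 12 of 12; permutation test, adjusted p = 0.000781). Supporting reads per circle ran with length: the difference from circles of 330 to 420 bp was 7.96 (higher in 12 of 12 libraries) and that from circles of 1000 to 10000 bp was -26.9 (lower in 12 of 12; permutation test, adjusted p = 0.000781 for both).

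By chromosome, the circles of irradiated skin were fewer on chromosomes 12 and 19 relative to the rest. Chromosome 12 held 4.61% to 5.87% of the circles of control libraries, 1.79% to 4.69% of those of 5 Gy x2 libraries and 1.93% to 2.58% of those of 5 Gy x4 libraries. Of 21 chromosomes tested, which left out 1 circle on Y, 5 Gy x4 over control had 3 higher (14.3%) and 2 lower (9.52%) by edgeR's quasi-likelihood test. Chromosomes 11, 2 and 4 rose, by 0.65 ± 0.18, 0.40 ± 0.11 and 0.33 ± 0.11 on the log2 scale (SE; edgeR adjusted p = 0.00423, 0.00246 and 0.0133). Chromosomes 12 and 19 fell, with -1.28 ± 0.17 and -0.57 ± 0.18 (edgeR adjusted p = 1.74e-09 and 0.0108).

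For 5 Gy x2 over control, 0 chromosomes were higher (0%) and 2 lower (9.52%), while 5 of the 21 had an unadjusted edgeR p under 0.05 and DESeq2 called 0 in either direction. Chromosomes 12 and 19 fell again, with -1.02 ± 0.18 and -0.60 ± 0.19 (SE; edgeR adjusted p = 3.40e-06 and 0.0261). For 5 Gy x4 over 5 Gy x2, edgeR and DESeq2 called 0 chromosomes (0%) and 1 had an unadjusted edgeR p under 0.05. The number called for 5 Gy x4 was 2 without control replicate 3. For 5 Gy x2 it was 1 without control replicate 4, without 5 Gy x2 replicate 2 or without 5 Gy x2 replicate 3.

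**Figure D5:**
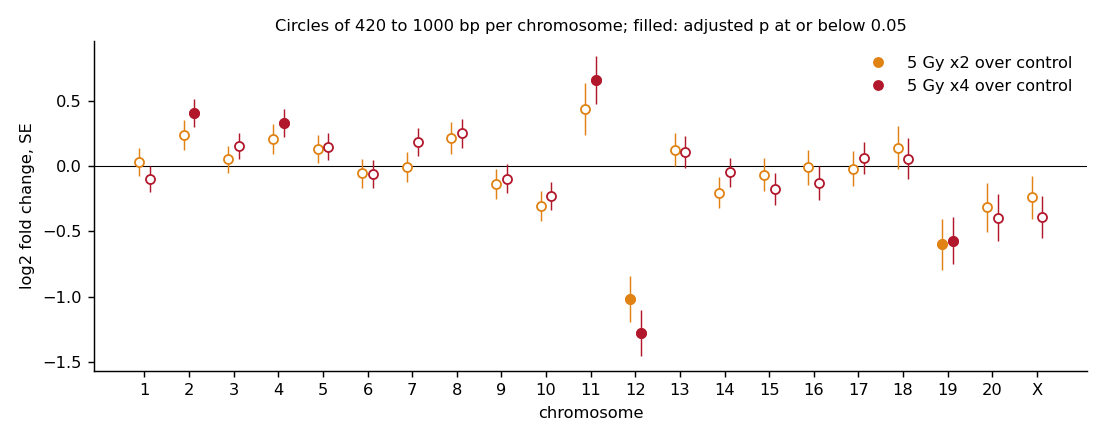
Log2 fold change (edgeR) of the number of circles of 420 to 1000 bp per chromosome with its SE, for 5 Gy x2 over control and 5 Gy x4 over control; filled points have an adjusted p at or below 0.05. Chromosome 12 is lowest in both comparisons, at -1.02 and -1.28.

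Intronic circles of the class were spread over 3285 of the 12589 genes with an intronic circle of any length, and 2230 of these genes had 1. They made up 7.12% of all intronic circles. Mycbp2, a ubiquitin ligase gene whose circles in the annotation run over chr15:87932950-93610835, had most with 34, which is 6.84% of its 497 intronic circles. Whether all of this long stretch belongs to the gene was not tested, so its rank and counts are those of the stretch the annotation assigns to it. It had 4 finds over the control libraries, 12 over 5 Gy x2 and 22 over 5 Gy x4. Apoo, which encodes a subunit of the mitochondrial cristae complex, had 32 within chrX:63560698-63599992, or 31.4% of its 102 intronic circles. Its finds went the other way, with 1, 6, 7 and 7 in control libraries, 1, 2, 3 and 4 in 5 Gy x2 libraries and 3, 1, 2 and 2 in 5 Gy x4 libraries. The 1 Mb window around it held 36 circles of the class, the most of any window, where the median was 5.

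Ighm, the immunoglobulin mu heavy chain locus, had 17 circles (26.2% of its 65), with 8 finds in control libraries, 7 in 5 Gy x2 libraries and 10 in 5 Gy x4 libraries. St6galnac3, a sialyltransferase gene, had 13, of which 7 were found in 2 or more libraries. Rbms3, an RNA-binding protein gene, also had 13, and a gene the files name only as ENSRNOG00000006617 had 16. Nrxn3, a presynaptic adhesion gene, and Luzp2 had 11 each, and Ptprt, a receptor tyrosine phosphatase gene, had 10. In the order control, 5 Gy x2 and 5 Gy x4, Nrxn3 had finds of 0, 2 and 9 and Luzp2 of 0, 2 and 10. In that order St6galnac3 had 7, 11 and 7, Rbms3 had 7, 3 and 11, ENSRNOG00000006617 had 6, 6 and 10, and Ptprt had 1, 6 and 4. All finds over genes numbered 1470 in control libraries, 2284 in 5 Gy x2 libraries and 3420 in 5 Gy x4 libraries, which is the background for these counts.

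In 6 gene lists for the skin, the radiation response and other tissues, the class was 5.08% to 12.5% of the intronic circles, against 7.12% over all genes. Of 30 DNA damage and repair genes, 24 had an intronic circle of any length and 8 one of this class. The class was 9 of their 166 intronic circles (5.42%). These included Prkdc, the catalytic subunit of the DNA-dependent protein kinase, with 2, and the Fanconi anaemia gene Fanca with 1, found 9 times over libraries with 334 reads. Genes of extracellular matrix and fibrosis had 9 of 177 (5.08%), among them Col5a1 with 3, Col14a1 with 2 and Fn1, the fibronectin gene, with 1.

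Keratinocyte and hair follicle genes had 17 of 136 (12.5%). These lay in 9 genes and included Runx1, a transcription factor gene, with 5, the desmosomal cadherin genes Dsc3 and Dsg1 with 3 and 2, and Krt5, a basal keratin gene, with 2. Muscle genes had 25 of 342 (7.31%), led by Dmd, the dystrophin gene, with 8. Oncogenes and growth factor receptor genes had 25 of 336 (7.44%), with Alk and Erbb4, both receptor tyrosine kinase genes, at 5 each and Cdk6, a cell cycle kinase gene, at 3.

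Long neuronal genes had 98 of 1441 (6.80%), in 21 of their 23 genes with an intronic circle. They took 12 of the finds in genes in control libraries (0.816%), 37 in 5 Gy x2 libraries (1.62%) and 61 in 5 Gy x4 libraries (1.78%).

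The other lists took smaller shares of the finds, given here in the order control, 5 Gy x2 and 5 Gy x4. DNA damage and repair genes had 7, 5 and 6 finds (0.476%, 0.219% and 0.175%) and matrix genes 6, 5 and 5 (0.408%, 0.219% and 0.146%). Keratinocyte and hair follicle genes had 5, 5 and 16 (0.340%, 0.219% and 0.468%). Muscle genes had 8, 14 and 10 (0.544%, 0.613% and 0.292%), and oncogenes and growth factor receptor genes 5, 6 and 17 (0.340%, 0.263% and 0.497%). These lists carry no test, since they were chosen with results of these data known.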

How the data were processed

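The authors deposited, per the file headers, 1 table of counts per library, whole-number supporting reads for each circle of a common list, not normalized, and annotation tables with each circle's position, length, type, gene, label and per-library ends and coverage. The submitters' processing notes name BWA, Picard, bedtools and the build rn6; which caller found the circles, and how calls were joined, is not given in the sources used here. Of the annotation's per-library columns, 6 were not used. The circles, windows and gene lists were chosen with earlier results of these data known.

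Presence needed 1 supporting read. Single values were compared between groups with two-sided exact permutation tests over libraries (scipy 1.17.1), and classes within libraries by sign flips, with Benjamini-Hochberg adjustment. Counts per length bin and chromosome were fitted over all 12 libraries with edgeR 4.0.16 (R 4.3.3), with DESeq2 1.42.0 as an alternative. Only the fit of length bins was tried on simulated counts, where 88.25% of 2-fold changes were recovered and 2.49% of calls were false. Those counts had a fixed spread and changes even in both directions, so they cannot vouch for the calls in these data. Libraries with the same replicate number deviated together in some pairs only (correlations of -0.44 to 0.64 over 12 pairs, 5 above 0.1), so the numbers were not used as pairs. Named were the 10 genes with most circles, up to 4 genes of each list, the 8 circles in most libraries, the 6 with most reads, and bins and chromosomes past the threshold. One gene that this rule takes is not reported here. GC content and repeats at the circle ends were planned but not run, and no sequence was used here.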

Additional observations from a re-analysis of the deposited data

Results flagged for a closer look

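In 5 Gy x2 replicate 2, 32.7% of the circles of 420 to 1000 bp rested on 1 supporting read, against 13.4% to 16.3% in the other 3 libraries of its group, a gap of 0.85 of the whole range. In all, 57 groups and measures were searched this way and no other had a library so far from the rest; chance flags about 1 in 20 of such searches, so a single flag is not more than chance gives. The same library had 98352 supporting reads and 26384 intronic and intergenic circles, and the cause was not tested.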

How the results depend on the processing

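The threshold here is an unadjusted p of 0.05 for the exact tests between groups, none of which passed it after adjustment, and an adjusted p for the other tests. Of 199 values under other settings, 160 stayed the same, 23 weakened, 5 grew stronger and 11 turned direction. For single values, the same means the same direction and side of the threshold. For length bins and chromosomes, it means a similar number of calls, whatever their direction. The number of circles in 5 Gy x4 over control was 1.48 with 30000 supporting reads drawn, 2.15 in a class of 500 to 800 bp and 1.23 with the label hconf only, none past the threshold. It was 0.966 per supporting read (exact p = 0.914), counted as a turn though close to no difference, and it turned to 0.383 per mitochondrial depth. For 5 Gy x2 over control it turned to 0.903 with hconf only and 0.306 per mitochondrial depth, and for 5 Gy x4 over 5 Gy x2 to 0.866 per supporting read. The cause was not tested for any of these.

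Among circles found in 1 library, chosen as a setting after seeing the data like the 2 others named in this paragraph, the share differed from control by -2.52 points (5 Gy x4) and -2.54 points (5 Gy x2). The log2 ratio differed by -1.61 for 5 Gy x2, the median length by -21 bp for 5 Gy x4, the share of 500 to 600 bp by -1.85 points for 5 Gy x4, and the intronic share by -1.03 (5 Gy x4) and -3.73 points (5 Gy x2), all no longer past the threshold. For 5 Gy x4 over 5 Gy x2 the share turned to 0.0259 points, the log2 ratio to 0.0729 and the median length to 6.12 bp. Without entries whose calls are all under 420 bp, the share of 500 to 600 bp differed by -1.86 points (5 Gy x4), the gene-dense share by -5.51 points (5 Gy x2), and the median length by -35.1 bp (5 Gy x2), which passed. By the single calls' own lengths, the number and the log2 ratio stayed on the same side of the unadjusted threshold.

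In a class of 500 to 800 bp the median length differed by -6.75 bp (5 Gy x4) and the intronic share by -2.47 (5 Gy x4) and -2.30 points (5 Gy x2). The intronic share with hconf only was -2.59 (5 Gy x4) and -0.643 points (5 Gy x2), and with at least 2 supporting reads -3.20 points (5 Gy x2). For 5 Gy x4 over 5 Gy x2 it turned to -0.175 points in 500 to 800 bp and -1.95 points with hconf only, and the share of 500 to 600 bp turned to 0.704 points with hconf only. In windows of 5 Mb the gene-dense share differed by -6.37 points (5 Gy x2). Against circles of 1000 to 10000 bp it was 2.55 points higher with hconf only. Length bins called numbered 27 and 25 by library size, 13 and 8 in bins of 10 bp, for 5 Gy x4 and 5 Gy x2 over control, and 5 for 5 Gy x4 with circles found in 1 library. Chromosomes called for 5 Gy x2 numbered 0 with DESeq2 and 1 with at least 2 supporting reads.

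With the replicate block, the sign-flip test over 4 same-numbered pairs cannot reach the threshold, so every call of an exact test was lost with the values as they were. These were the number at 2.53, the share at -8.20 and -7.14, the log2 ratio at -2.15 and -1.96, the share of reads at -14.6 and -12.4, the median length at -52.9, the share of 500 to 600 bp at -2.60, the intronic share at -2.90 and -3.21 and the gene-dense share at -7.16 and -5.78. The block left 5 length bins for 5 Gy x4 and 3 for 5 Gy x2 over control. In 9 of 24 comparisons of a library with another group, it correlated best with its own number.

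Leaving out 1 library, the exact permutation test of 3 against 4 cannot go below p = 0.0571, so each such call was lost by construction. In 5 Gy x4 over control the values ran over 2.06 to 2.85 (number), -9.72 to -6.16 (share), -2.48 to -1.67 (log2 ratio), -16.2 to -13.4 (share of reads), -61.8 to -42.7 bp (median length), -2.98 to -2.01 (500 to 600 bp), -3.33 to -2.56 (intronic) and -7.75 to -6.54 (gene-dense). For 5 Gy x2 over control they ran over 1.33 to 2.09 (number), -8.66 to -5.10 (share), -2.30 to -1.49 (log2 ratio), -13.9 to -11.0 (share of reads), -3.71 to -2.87 (intronic) and -7.14 to -4.79 (gene-dense). For 5 Gy x4 over 5 Gy x2, some turned, with 0.607 to 1.12 for reads per circle, -26.5 to 1.12 bp for the median length, -1.54 to 0.947 for 500 to 600 bp and -0.126 to 0.805 for the intronic share. Length bins called were 5 to 10 for 5 Gy x4 and 2 to 8 for 5 Gy x2 over control, and chromosomes 2 to 6 and 1 to 2. The sequencing depth is unknown, and circles on 1 read, 3293 of 15417, set the limit of what a library can show.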
